A study of Homo sapiens with 92 samples.

Results

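This section describes a single half-hour of transcriptional restart after mitosis: the change in newly made RNA from 60 to 90 min after release from a nocodazole arrest, in cells given the DMSO vehicle and no degrader of NIPBL. The 8 samples were chosen by their titles, 4 at 60 min and 4 at 90 min out of 92 in the series. All came from NIPBL-D7, 1 clone of the immortalised retinal pigment epithelial line hTERT RPE-1 with the genotype mGreenLantern-P2A-FKBP12(F36V)-NIPBL, so DMSO cells carried the tagged allele too. Cells had been held with 2 mM thymidine for 14 h, released for 10 h, held again for 14 h and released for 8 h. They then received 20 ng/ml nocodazole together with DMSO for 120 min, were collected by mitotic shake-off and were released into DMSO for 60 or 90 min. 4-thiouridine (4sU, 100 µM) was present for the last 15 min of that time. The comparison arm was the same clone on the same schedule with dTAGV-1, a compound that brings the tagged NIPBL to the VHL ubiquitin ligase (4 samples at each time), and values are also given for 6 DMSO samples of a series titled release, whose treatment label gives DMSO for 60 or 90 min and whose synchronisation is described in the same words. The labels do not say whether replicates were separate cultures, so p-values measure the spread between these samples, which may be technical.

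Chromosomes are condensed in mitosis and most transcription stops. As cells leave mitosis RNA polymerase II is recruited again to promoters, and because a polymerase needs time to travel, the far end of a long gene is transcribed later than that of a short one. Genes that carry out division are switched off in early G1, while growth-responsive genes can be induced when cells re-attach. 4sU enters RNA as it is made and is read as T-to-C conversions after alkylation, so reads with a conversion (converted reads) stand for RNA made during the label, introns included, as the libraries were of total RNA without ribosomal RNA. Levels are given in CPM, converted reads scaled to a common library total, with library sizes adjusted by the trimmed mean of M-values. They are shares of each library: a rise in CPM is a rise relative to the other new RNA, and fewer active cells cannot be told apart from less new RNA per cell.

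The 8 libraries held 1.21 to 2.65 M converted reads out of 33.4 to 73.7 M reads (M for mega). The share of reads with a conversion was 3.95% ± 0.40 at 60 min and 4.03% ± 0.81 at 90 min (SD, n = 4 each), a difference smaller than the spread between replicates (two-sided exact permutation test, p = 0.857; the smallest p that 4 against 4 allows is 0.0286). No library without 4sU was used, so the conversions that sequencing errors give are not subtracted. Each library correlated with the other libraries of its own time at a mean r of 0.957 to 0.979 (log2 CPM across genes). Replicate 1 at 90 min had the lowest of these and the highest share of mitotic-gene reads of its time, 0.966% against 0.538% to 0.707%. It was also the lowest library at 90 min for 11 of the 12 largest rises named here, and the part of this in the changes was not tested beyond leaving it out. VIM and KRT8, mesenchymal and epithelial filament genes that RPE-1 cells express, were read at 1348 and 103 CPM at 60 min, whereas the pigment-epithelium genes RPE65, RLBP1, BEST1, TYR, PMEL and RAX did not pass the filter on low counts. Of 28 markers of cardiomyocytes, neurons, pluripotent cells, endothelium and blood, 6 passed that filter. None of those 6 passed the edgeR test given below, with estimates from -0.14 to 1.04 on the log2 scale. Of all 48536 genes analysed 14197 passed the filter, and 19.4% of these passed the edgeR test. Whether the markers differ from other genes in either count was not tested. The summed level of cardiomyocyte markers was 4.29 to 12.3 CPM at 60 min and 4.49 to 10.5 CPM at 90 min, and that of neuron markers was 43.4 to 51.8 and 41.9 to 54.3 CPM.

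Between 60 and 90 min 1787 of 14197 tested genes fell and 963 rose (edgeR quasi-likelihood test, adjusted p under 0.05), which is 12.6% and 6.78% of the genes tested and 19.4% in all. In 2329 of these 2750 genes the 4 libraries at 90 min did not overlap the 4 at 60 min. The genes were called on these same libraries, so this is no separate evidence, and the share over all tested genes was not counted. Without replicate 1 at 90 min the counts were 1716 and 1009. Without replicate 3 at 90 min 1257 fell and 626 rose, the lowest counts of the 8 fits that left out a library. A scale from the totals of all reads moved the median of all genes from -0.05 to -0.15 on the log2 scale and gave 2021 falls and 433 rises, so the balance of falls and rises depends on the scale. The genes that rose were long, with a median length of 116 kb, and the genes that fell were short, with a median of 26.5 kb, against 37.4 kb for all tested genes. Among tested genes with a RefSeq match as protein coding 1469 of 11185 fell and 808 rose, and among long noncoding RNAs 88 of 575 fell and 35 rose.

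The median levels over time show 2 different shapes behind these counts. Across the 1787 genes that fell, the median log2 CPM was 4.73, 4.75, 5.51, 4.72 and 4.65 at 0, 30, 60, 90 and 120 min. In converted reads these genes as a group were thus high at 60 min only, and their median at 90 min was near that at 0 min. The 963 genes that rose had medians of 6.27, 6.29, 6.20, 6.93 and 6.75 at the same times, so their level was nearly flat until 60 min and then stepped up. All tested genes together moved far less, with medians between 4.62 and 4.86. The share of reads with a conversion in DMSO was 2.44% to 3.31% at 0 min and 2.62% to 2.90% at 30 min. At 60 min it was 3.47% to 4.43%. Without a library lacking 4sU, the part of error conversions in the levels at 0 and 30 min was not tested. The 60 and 90 min values are those that chose the genes. The dTAGV-1 libraries were not part of the contrast that chose them, but shared its filter, scaling and estimate of spread. They gave 4.79, 4.77, 5.53, 4.83 and 4.62 for the falling genes and 6.22, 6.28, 6.25, 6.91 and 6.90 for the rising ones.

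**Figure D1:**
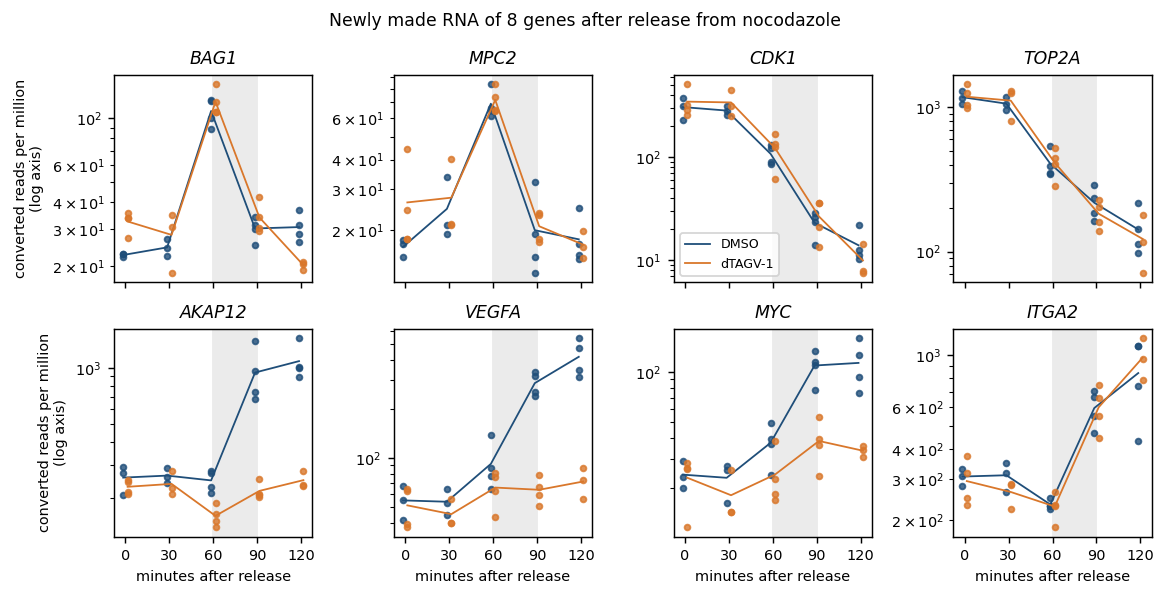
Converted reads in CPM (log axes) against minutes after release for 8 genes, each point a library and each line the mean of a group, with DMSO in blue, dTAGV-1 in orange and the interval from 60 to 90 min shaded. BAG1 and MPC2 are high at 60 min only, CDK1 and TOP2A fall at each time from 30 min on, and AKAP12 and VEGFA rise more from 60 to 90 min in DMSO than with dTAGV-1.

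Promoters are shown for 4 of the genes with the largest changes, 3 that fell and 1 that rose, picked after their sequences and values were seen as examples of how the motifs counted further on lie in a promoter. They do not stand for the largest changes: of 10 matched promoters of the 12 largest falls and 10 of the 12 largest rises, the AP-1 letters were in 1 and 1 and the CHR letters in 1 and 1. Each runs 5′ to 3′ from 250 bases before to 50 bases after the RefSeq gene start (GRCh38.p14), and capitals mark matches on either strand to the CCAAT box, to the CHR element of cell cycle genes with letters TTTGAA, to the AP-1 site with letters TGANTCA, to the TATA box with letters TATAAA and to the GC box with letters GGGCGG. CDK1 (chr10:60778081-60778380, plus strand) holds the CHR letters from base 90 and a CCAAT box from base 101 of the window. Whether either acts there was not tested. MTFR2 (chr6:136250262-136250561, minus strand) holds 3 CCAAT boxes and THAP9 (chr4:82900485-82900784, plus strand) holds 2 and an AP-1 site. IL1A (chr2:112784444-112784743, minus strand) holds 2 AP-1 sites, a CCAAT box and the TATA letters.
CDK1: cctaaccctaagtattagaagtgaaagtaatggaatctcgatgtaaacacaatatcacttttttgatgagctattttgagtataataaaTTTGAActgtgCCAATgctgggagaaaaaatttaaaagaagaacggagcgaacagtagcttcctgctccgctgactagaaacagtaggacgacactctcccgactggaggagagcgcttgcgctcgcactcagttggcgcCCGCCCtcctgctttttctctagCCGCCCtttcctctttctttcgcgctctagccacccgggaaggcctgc
MTFR2: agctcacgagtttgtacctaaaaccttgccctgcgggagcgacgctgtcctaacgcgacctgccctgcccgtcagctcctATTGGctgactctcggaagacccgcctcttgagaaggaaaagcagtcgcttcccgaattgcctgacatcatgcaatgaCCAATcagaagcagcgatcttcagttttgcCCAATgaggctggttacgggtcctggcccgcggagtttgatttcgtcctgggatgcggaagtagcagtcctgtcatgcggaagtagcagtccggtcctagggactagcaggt
THAP9: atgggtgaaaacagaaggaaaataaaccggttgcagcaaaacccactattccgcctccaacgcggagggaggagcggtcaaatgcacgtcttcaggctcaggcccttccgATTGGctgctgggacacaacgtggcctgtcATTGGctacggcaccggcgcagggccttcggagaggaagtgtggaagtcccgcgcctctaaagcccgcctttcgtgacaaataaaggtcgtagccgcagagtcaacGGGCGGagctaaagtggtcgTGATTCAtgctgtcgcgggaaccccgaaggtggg
IL1A: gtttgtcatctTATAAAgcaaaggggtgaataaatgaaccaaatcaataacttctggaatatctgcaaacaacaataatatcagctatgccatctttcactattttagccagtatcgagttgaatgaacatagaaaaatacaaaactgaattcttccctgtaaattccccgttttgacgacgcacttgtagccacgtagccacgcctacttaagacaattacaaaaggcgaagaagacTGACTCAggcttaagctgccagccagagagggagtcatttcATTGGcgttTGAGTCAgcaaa

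Among the largest falls were genes with a short burst of new RNA at 60 min. BAG1 (chr9:33247820-33264761 on hg38), which encodes a nucleotide exchange factor of HSP70 chaperones, had 122, 100.1, 89.1 and 120.0 CPM at 60 min and 34.0, 25.2, 31.3 and 29.9 CPM at 90 min (log2 change -1.85 ± 0.16 SE, adjusted p = 1.56e-09). Each library at 90 min lay below every library at 60 min. Its mean level at 0, 30, 60, 90 and 120 min was 22.6, 24.5, 108, 30.1 and 30.6 CPM, with the highest value at 60 min. The converted share of its reads went from 8.00% to 2.98%, and its level in all reads changed by -0.64 on the log2 scale. MPC2 (chr1:167916729-167937040), a subunit of the mitochondrial pyruvate carrier, had 66.0, 83.8, 61.5 and 65.3 CPM at 60 min and 19.4, 13.2, 15.4 and 32.2 CPM at 90 min (log2 change -1.82 ± 0.25 SE, adjusted p = 4.38e-06), without overlap. Its means over the 5 times, 17.0, 24.7, 69.1, 20.0 and 18.3 CPM, show the same rise and return. SETD9, a SET-domain gene, read 24.9, 26.9, 23.0 and 25.9 CPM at 60 min and 16.2, 5.98, 2.95 and 5.99 CPM at 90 min (log2 change -1.76 ± 0.33 SE, adjusted p = 2.15e-04), and replicate 1 was the highest at 90 min. HSD17B7, an enzyme of cholesterol and oestrogen synthesis, gave 24.6, 31.6, 19.0 and 27.0 CPM at 60 min and 6.47, 5.55, 9.45 and 9.73 CPM at 90 min (log2 change -1.73 ± 0.27 SE, adjusted p = 2.54e-05). CETN3, a centrin of the centriole, had 22.4, 22.6, 9.73 and 24.4 CPM at 60 min and 6.47, 5.13, 4.13 and 8.98 CPM at 90 min (log2 change -1.72 ± 0.30 SE, adjusted p = 9.61e-05), with replicate 3 at 60 min far below the other 3 there. LYSMD1 was lower as well, at 13.6 ± 2.80 CPM at 60 min and 4.02 ± 0.968 CPM at 90 min (SD, n = 4 each).

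THAP9, a gene derived from a DNA transposase, showed the largest fall of the named genes, with 25.3, 21.0, 16.4 and 19.7 CPM at 60 min and 4.85, 2.14, 2.95 and 3.74 CPM at 90 min (log2 change -2.65 ± 0.33 SE, adjusted p = 8.98e-07). It rests on few reads, 32 to 69 converted reads per library at 60 min and 5 to 6 at 90 min. Its converted share went from 7.94% to 2.04%. Of the named antisense transcripts, 3 fell, while PSMD6-AS2, described with the rises, went up. NDUFV2-AS1 read 30.1, 38.6, 21.5 and 29.5 CPM at 60 min and 9.70, 6.83, 4.72 and 6.74 CPM at 90 min (log2 change -2.11 ± 0.36 SE, adjusted p = 7.11e-05), DNAJC3-AS1 read 26.0, 19.9, 13.3 and 24.1 CPM at 60 min and 6.47, 2.56, 5.90 and 8.98 CPM at 90 min (log2 change -1.87 ± 0.31 SE, adjusted p = 6.19e-05), and AZIN1-AS1 went from 19.1 ± 7.52 to 5.81 ± 2.07 CPM (SD, n = 4 each). The first 2 were nearly silent before, at 1.58 and 0.863 CPM at 30 min. No library at 90 min reached the range at 60 min for any of these 4 genes, as their choice required. NDUFV2-AS1 lies over NDUFV2 and AZIN1-AS1 over AZIN1, and THAP9 overlaps SEC31A and LIN54. The sources used here do not say whether reads were counted by strand, so reads of such overlapping genes may be shared. Of the 79 genes named by rule, 47 overlap another gene listed in the files.

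CDK1 and other genes of the dividing cell fell along another course. CDK1 (chr10:60778331-60794852), the kinase that drives entry into mitosis, had 122, 86.5, 90.7 and 132 CPM at 60 min and 23.5, 14.1, 26.0 and 28.4 CPM at 90 min (log2 change -2.26 ± 0.32 SE, adjusted p = 9.44e-06). The groups did not overlap, as its choice among the largest falls required. The CDK1 means over the 5 times were 308, 284, 108, 23.0 and 13.9 CPM, a decline in converted reads from the arrest onwards, error conversions included. Its converted share went from 3.25% to 2.67%, and its all-read level changed by -2.09 on the log2 scale. Relative to all reads of the gene the change of CDK1 was only -0.21. MTFR2, a regulator of mitochondrial fission, had 26.0, 23.4, 17.9 and 24.8 CPM at 60 min and 5.66, 5.13, 6.49 and 3.74 CPM at 90 min (log2 change -2.12 ± 0.25 SE, adjusted p = 4.24e-07). Its level at 0 and 30 min was 17.5 and 20.7 CPM, close to that at 60 min, so its fall came within this step. TOP2A, the topoisomerase that untangles sister chromatids, had 539, 353, 344 and 391 CPM at 60 min and 292, 162, 184 and 234 CPM at 90 min (log2 change -0.90 ± 0.24 SE, adjusted p = 0.00812). Its means at 0, 30 and 120 min were 1178, 1062 and 142 CPM. Replicate 1 was the highest library for TOP2A at both times. Relative to all reads of the gene its change was 0.10 (adjusted p = 0.532), so its sign turned by that measure. AURKB, the kinase of the chromosomal passenger complex, had 58.7, 32.3, 34.3 and 31.4 CPM at 60 min and 27.5, 21.4, 20.1 and 16.5 CPM at 90 min (log2 change -0.88 ± 0.25 SE, adjusted p = 0.0107), and that call was lost without replicate 1 at 60 min (adjusted p = 0.0939). For MTFR2 and AURKB the all-read changes were -1.62 and -0.86, and those relative to all reads of the gene -0.54 and -0.10.

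Of 34 mitotic genes tested 11 fell and none rose, with a median log2 change of -0.32 against -0.05 for all genes tested. The other members that fell were AURKA (-0.85), BUB1B (-0.81), CDC25B (-0.81), CDC25C (-0.84), KIF2C (-0.58), NUSAP1 (-0.86), TPX2 (-0.48) and UBE2C (-0.87), all as log2 changes. Other central members were not called, among them CCNB1 (-0.14), PLK1 (-0.20), MKI67 (0.08) and CCNA2 (0.15). The summed level of the list was 15670.3 ± 2409 CPM at 0 min, 14959 ± 2008 at 30 min, 8889.98 ± 1259 at 60 min, 7439 ± 1491 at 90 min and 6589 ± 1301 at 120 min (SD, n = 3, 3, 4, 4 and 4). Most of the decline of the list as a whole in converted reads, error conversions included, thus lay before 60 min. As a share of converted reads the list held 0.930% ± 0.136 at 60 min and 0.720% ± 0.179 at 90 min (SD, n = 4 each), a difference that did not pass the two-sided exact permutation test (p = 0.114, adjusted p over 10 classes = 0.163). Of 24 genes of G1 and S phase 5 fell and 2 rose. Among all tested genes 12.6% fell and 6.78% rose. ORC1 (-1.49 ± 0.26), the large subunit of the origin recognition complex, and CDC25A (-1.26 ± 0.18), a phosphatase that activates cyclin-dependent kinases, fell most on the log2 scale (± SE). CDK6 (1.35 ± 0.23) and CCND1 (0.59), the kinase and cyclin that act first in G1, were the 2 that rose.

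The largest rises were of other kinds of genes. AKAP12 (chr6:151239999-151358557), a scaffold that anchors protein kinase A, had 213, 273, 277 and 227 CPM at 60 min and 679, 738, 1397 and 959.8 CPM at 90 min (log2 change 1.93 ± 0.18 SE, adjusted p = 5.72e-09). The groups did not overlap, as the choice of the largest rises required. AKAP12 had been flat until then, at 256 and 263 CPM at 0 and 30 min, and it stood at 1087 CPM at 120 min. MIR100HG (chr11:122028327-122556721), a long noncoding RNA that hosts miRNAs, had 467, 885, 891 and 728 CPM at 60 min and 1867, 3116, 3409.8 and 3486 CPM at 90 min (log2 change 2 ± 0.26 SE, adjusted p = 1.86e-06). MIR31HG (chr9:21455642-21559669), the host transcript of miR-31, had 611, 901, 1372 and 984 CPM at 60 min and 2185, 3038, 4682 and 4473 CPM at 90 min (log2 change 1.90 ± 0.32 SE, adjusted p = 1.01e-04). Both had their lowest library in replicate 1 at each time. At 90 min these host transcripts were among the 10 genes with the most converted reads, ranking 6th and 4th, whereas neither was at 60 min. DCBLD2, a membrane receptor gene, and CD44, the hyaluronan receptor, also entered the 10, at 3631 ± 1125 and 2793 ± 533 CPM (SD, n = 4). Their log2 changes were 1.30 and 0.97, with adjusted p = 4.67e-05 and 7.22e-04, and both were picked out after their values were seen. The 10 most abundant genes together took 2.61% ± 0.23 of converted reads at 60 min and 3.31% ± 0.09 at 90 min (SD, n = 4 each; two-sided exact permutation test, p = 0.0286, adjusted p = 0.0476).

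IL1A (chr2:112773915-112784590), the alarm cytokine interleukin-1 alpha, had 10.6, 28.4, 35.9 and 40.5 CPM at 60 min and 51.8, 141, 158 and 224 CPM at 90 min (log2 change 2.33 ± 0.50 SE, adjusted p = 0.00161). The groups did not overlap, as the choice of the largest rises required, and replicate 1 was the lowest at both times. SNAI2, a transcription factor of mesenchymal cells, had 2.57, 7.01, 4.10 and 4.38 CPM at 60 min and 15.4, 37.2, 21.8 and 26.2 CPM at 90 min (log2 change 2.48 ± 0.38 SE, adjusted p = 2.67e-05). DDIT4, an inhibitor of mTORC1, had 8.80, 12.9, 13.8 and 8.75 CPM at 60 min and 34.0, 46.6, 51.4 and 36.7 CPM at 90 min (log2 change 1.95 ± 0.40 SE, adjusted p = 9.87e-04), and went on to 136 CPM at 120 min. For IL1A, SNAI2 and DDIT4 the level in all reads had log2 changes of 2.31, 1.71 and 1.77, and relative to all reads of the gene IL1A was at -0.04. Against this, that of AKAP12 was 0.70 in all reads and its converted share went from 2.09% to 4.34%. IL20RB, a receptor subunit for interleukins 20 and 24, had 5.13, 7.40, 5.63 and 5.11 CPM at 60 min and 18.6, 22.6, 25.4 and 35.2 CPM at 90 min (log2 change 2.11 ± 0.30 SE, adjusted p = 5.86e-06), and it overlaps NCK1 and IL20RB-AS1. PSMD6-AS2 had 3.30, 2.73, 4.61 and 3.28 CPM at 60 min and 24.3, 25.2, 18.9 and 18.7 CPM at 90 min (log2 change 2.65 ± 0.33 SE, adjusted p = 1.42e-06) and overlaps PSMD6. CTAGE5, a gene of cargo export from the endoplasmic reticulum, had 4.77, 7.40, 8.71 and 6.56 CPM at 60 min and 22.6, 30.3, 58.5 and 42.7 CPM at 90 min (log2 change 2.50 ± 0.40 SE, adjusted p = 4.42e-05). ASB3 and the readthrough gene GPR75-ASB3 share most of their span, and rose by 2.32 and 1.94, which cannot count as 2 results.

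Growth-responsive genes rose in part, beside 6.78% of rises and 12.6% of falls among all tested genes. Of 28 immediate early genes, transcribed within minutes of a growth stimulus, 7 rose and none fell, with a median log2 change of 0.97. MYC had 24.2, 49.5, 36.9 and 39.4 CPM at 60 min and 77.6, 134, 109.8 and 115 CPM at 90 min (log2 change 1.55 ± 0.26 SE, adjusted p = 7.35e-05). EGR3 had 15.0, 16.0, 30.2 and 22.6 CPM at 60 min and 47.7, 54.7, 72 and 74.9 CPM at 90 min (log2 change 1.58 ± 0.40 SE, adjusted p = 0.00553), and IER3, an early response gene of cell survival, had 20.9, 46.8, 39.9 and 41.6 CPM at 60 min and 92.2, 109, 129 and 139 CPM at 90 min (log2 change 1.65 ± 0.46 SE, adjusted p = 0.0114). In all 3 the groups did not overlap. Their reads in total rose too: relative to all reads of the gene, the converted reads of EGR3 changed by -0.62 on the log2 scale (edgeR, adjusted p = 0.0348), of MYC by -0.30 (adjusted p = 0.0838) and of IER3 by -0.20 (adjusted p = 0.421). KLF10 (1.14), ZFP36L1 (1.03), FOSL2 (0.62) and FOSL1 (0.51) were the other 4 that rose. FOS (-0.29), EGR1 (1.44), JUN (1.43) and NR4A3 (1.6) were not called, although the last 3 had estimates above 1. Of 13 genes of ERK feedback and EGF receptor ligands 7 rose and none fell, with a median of 0.96. SPRY4, a feedback inhibitor of the pathway, had 41.1, 52.2, 67.6 and 56.9 CPM at 60 min and 94.6, 154, 199.6 and 155 CPM at 90 min (log2 change 1.48 ± 0.22 SE, adjusted p = 1.37e-05), and DUSP4, a phosphatase of ERK, had 99.0, 114, 102 and 88.6 CPM at 60 min and 302, 329, 241 and 237 CPM at 90 min (log2 change 1.46 ± 0.16 SE, adjusted p = 7.21e-08). ERRFI1, an inhibitor of the EGF receptor, went from 255 ± 43.4 to 681 ± 223 CPM (SD, n = 4 each), and SPRY2 (1.38), HBEGF (0.96), TGFA (1.26) and EGFR (0.65) rose as well.

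Of 22 mesenchymal and lineage transcription factors 12 rose and 2 fell, beside 6.78% of rises and 12.6% of falls among all tested genes. GATA6, a factor of mesoderm and endoderm, had 66.4, 87.3, 94.8 and 68.9 CPM at 60 min and 210.3, 273, 328 and 317 CPM at 90 min (log2 change 1.83 ± 0.25 SE, adjusted p = 4.99e-06). FOXC2 (1.56 ± 0.22, SE), ZEB1 (1.24), SOX9 (1.14), RUNX2 (0.97), SNAI1 (0.87) and TWIST2 (0.81) rose too. The 2 that fell were the eye-field factors PAX6 and OTX2. PAX6 had 116, 138, 102 and 137 CPM at 60 min and 69.5, 51.3, 38.4 and 41.9 CPM at 90 min (log2 change -1.31 ± 0.17 SE, adjusted p = 2.69e-06). OTX2 had 61.6, 60.8, 56.3 and 62.7 CPM at 60 min and 28.3, 30.3, 25.4 and 23.2 CPM at 90 min (log2 change -1.16 ± 0.20 SE, adjusted p = 7.56e-05), a tight pair of groups that lay far apart. MITF, the third factor of the pigment epithelium in the list, rose, at 96.8, 149, 104 and 117 CPM at 60 min and 171, 203, 205 and 222 CPM at 90 min (log2 change 0.78 ± 0.18 SE, adjusted p = 0.00273). PAX6 and OTX2 had stood lower at 30 min, at 59.9 and 19.3 CPM.

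Matrix, adhesion and signalling lists leaned upward. Among all tested genes 6.78% rose and 12.6% fell, with a median of -0.05, and no list was tested against that. Of 21 matrix and adhesion genes 6 rose and none fell (median 0.41). ITGA2, the alpha-2 integrin, had 231, 229.5, 249.9 and 224 CPM at 60 min and 467, 550.2, 703 and 667 CPM at 90 min (log2 change 1.35 ± 0.21 SE, adjusted p = 2.33e-05), and HAS2, a hyaluronan synthase, went from 10.7 ± 5.43 to 36.4 ± 8.09 CPM (SD, n = 4 each). Among 17 TGF-beta and SMAD response genes 4 rose and 1 fell: INHBA, the activin A subunit, had 456, 449, 716 and 537 CPM at 60 min and 1329, 1606, 1816 and 1801 CPM at 90 min (log2 change 1.6 ± 0.37 SE, adjusted p = 0.00286), PMEPA1 rose by 1.42, and ID2, an inhibitor of basic helix-loop-helix factors, had a change of -1.36, with libraries that overlapped and 0.11 in all reads. Among 17 YAP and TEAD targets 6 rose and 1 fell, with F3, the tissue factor gene, at 1.09, WWTR1, which encodes TAZ, at 0.99, and AMOTL2, a brake on YAP, at -0.92. CCN1 and CCN2, classic YAP targets, were not called (0.56 and 0.75). Of 15 actin and contractile genes 4 rose and none fell, led by MICAL2 (0.90, and -0.01 in all reads). Among 17 inflammatory and NF-kB genes 3 rose and 1 fell. LIF, a cytokine of the interleukin-6 family, went from 64.3 ± 32.7 to 234 ± 65.7 CPM (SD, n = 4 each), a call lost without replicate 1 or 2 at 60 min or replicate 3 at 90 min (adjusted p 0.0539 to 0.0587). TNFAIP3, the NF-kB inhibitor A20, had 49.5, 59.6, 59.9 and 74.8 CPM at 60 min and 27.5, 26.1, 33.7 and 33.7 CPM at 90 min (log2 change -1.02 ± 0.29 SE, adjusted p = 0.0114) and a change of 0.03 in all reads.

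**Figure D2:**
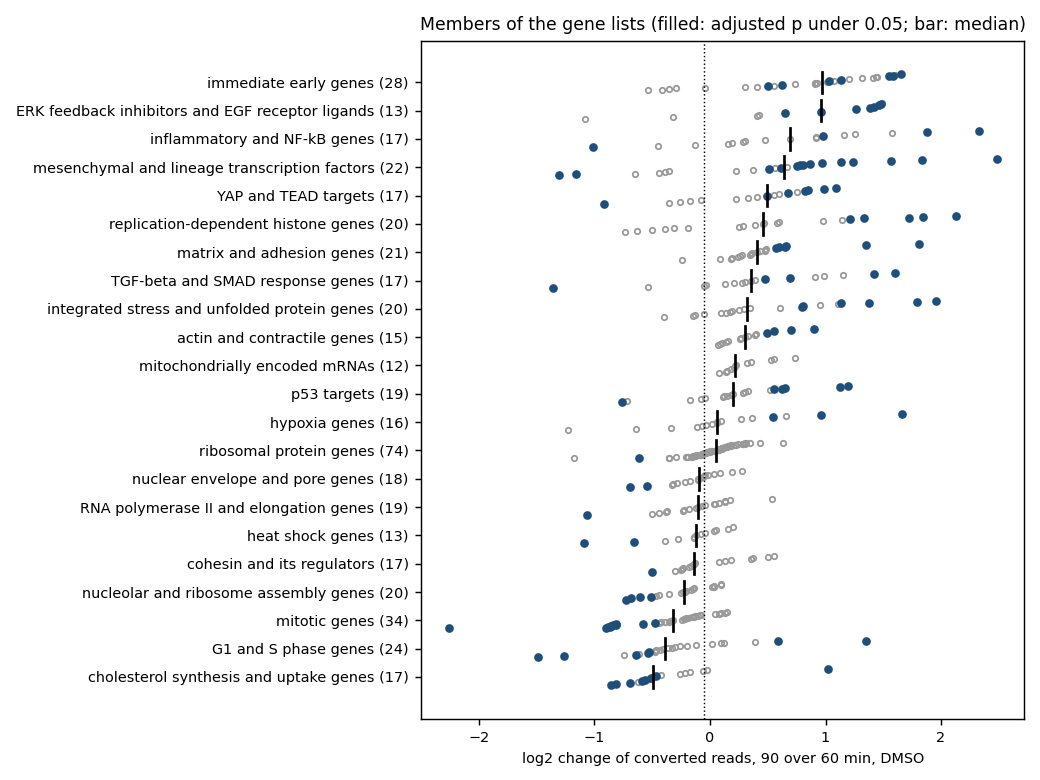
Log2 change of converted reads from 60 to 90 min in DMSO (x axis) for each tested member of the gene lists with at least 10 tested members, whose number stands in parentheses. Filled points have an adjusted p under 0.05, open points do not, bars are list medians and the dotted line is the median of all genes, -0.05. Immediate early genes have the highest median, 0.97, and cholesterol genes the lowest, -0.49.

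Stress, p53 and histone genes also had more rises than falls, beside 6.78% of rises and 12.6% of falls among all tested genes. Of 20 genes of the integrated stress and unfolded protein responses 6 rose and none fell. Besides DDIT4 these were CHAC1 (1.79, with libraries that overlapped, but -0.45 relative to all reads of the gene), SLC7A11, ASNS (1.14), PSAT1 (0.80) and CEBPG (0.79). SLC7A11, the cystine carrier, had 152, 154, 192 and 149.9 CPM at 60 min and 239, 336, 550.3 and 553 CPM at 90 min, and its call was lost without replicates 1, 2 or 4 at 60 min or 3 or 4 at 90 min (adjusted p 0.0651 to 0.0906). Of 19 p53 targets 5 rose and 1 fell. MDM2, the ubiquitin ligase of p53, had 186, 192, 188 and 185 CPM at 60 min and 272, 405, 533 and 428 CPM at 90 min (log2 change 1.13 ± 0.19 SE, adjusted p = 8.51e-05). CDKN1A, the inhibitor p21, changed by 1.20 ± 0.38 (SE), a call lost without replicates 1 or 2 at 60 min or 2 or 3 at 90 min (adjusted p 0.0609 to 0.0831). PPM1D, a phosphatase that shuts the p53 response down, fell (-0.76 ± 0.16, SE). Of 20 replication-dependent histone genes tested 5 rose and none fell, the linker histones HIST1H1E and HIST1H1C and 3 histone H4 genes. HIST1H1E had 5.87, 5.07, 13.8 and 9.85 CPM at 60 min and 28.3, 38, 50.8 and 29.9 CPM at 90 min, and its call was lost without replicates 1, 2 or 4 at 60 min or 2 or 3 at 90 min (adjusted p 0.0523 to 0.0802). HIST1H1C was lost without the same libraries other than replicate 2 at 90 min (adjusted p 0.0624 to 0.0767). The share of converted reads in histone genes went from 0.0390% ± 0.0013 to 0.0569% ± 0.0072 (SD, n = 4 each; two-sided exact permutation test, p = 0.0286, adjusted p = 0.0476).

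Of 17 genes of cholesterol synthesis and uptake 7 fell and 1 rose, with a median of -0.49 beside -0.05 for all genes. FDFT1, squalene synthase, went from 96.0 ± 9.77 to 53.2 ± 5.32 CPM (SD, n = 4 each; log2 change -0.86 ± 0.15 SE, adjusted p = 7.28e-05). SQLE (-0.58), IDI1 (-0.51), LSS (-0.47), MSMO1 (-0.69) and DHCR7 (-0.82), further enzymes of the pathway, fell too, the last not without replicates 2 or 3 at 60 min or 1 or 3 at 90 min (adjusted p 0.0695 to 0.115). INSIG1, which retains the sterol sensor in the endoplasmic reticulum, went the other way, with 55.4, 63.5, 57.9 and 56.9 CPM at 60 min and 92.2, 119, 117 and 145 CPM at 90 min (log2 change 1.02 ± 0.26 SE, adjusted p = 0.00615), but -0.04 on the log2 scale relative to all reads of the gene. Of 13 heat shock genes 2 fell and none rose. DNAJA1, an HSP40 co-chaperone, had 322, 371, 335 and 379 CPM at 60 min and 175, 145, 156 and 187 CPM at 90 min (log2 change -1.09 ± 0.14 SE, adjusted p = 2.49e-06), and BAG3, another co-chaperone, fell by 0.66 on the log2 scale. That share of the list is near the 12.6% of falls among all tested genes, and the list is not set apart by it.

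Among 20 nucleolar and ribosome assembly genes 4 fell and none rose, namely FBL (-0.72), POLR1B (-0.68), NOP2 (-0.60) and NOP58 (-0.51). Of all tested genes 12.6% fell, and whether this list differs from that was not tested. Of 74 ribosomal protein genes 1 fell, RPS29 (-0.61), which overlaps LRR1, and none rose. Among 19 genes of RNA polymerase II and elongation 1 fell, TBP, the TATA-binding protein, with 83.6, 91.2, 71.2 and 89.7 CPM at 60 min and 42.9, 39.7, 30.1 and 48.7 CPM at 90 min (log2 change -1.07 ± 0.17 SE, adjusted p = 4.70e-05). Among 18 nuclear envelope and pore genes SUN1 (-0.69) and LMNB1 (-0.55) fell, the latter not without replicate 2 at 60 min or 3 at 90 min (adjusted p 0.0641 to 0.0646). For the polymerase and the envelope and pore lists these counts lie below or near the 12.6% of falls among all tested genes and say nothing particular about the lists. Of 16 hypoxia genes 3 rose and none fell, beside 6.78% of rises among all tested genes. VEGFA, the vascular growth factor, had 64.2, 77.9, 139 and 87.2 CPM at 60 min and 241, 319.5, 340.1 and 254 CPM at 90 min (log2 change 1.66 ± 0.23 SE, adjusted p = 4.40e-06), and ADM, adrenomedullin, rose by 0.96 and was at -0.18 relative to all reads of the gene. The call of HIF1A (0.55 ± 0.17, SE), whose libraries overlapped, was lost without replicates 1 or 3 at 60 min or 2, 3 or 4 at 90 min (adjusted p 0.0504 to 0.0936). None of 12 mitochondrially encoded mRNAs was called, although all 12 estimates were above 0 (median 0.22).

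NIPBL, the cohesin loader whose gene carries the degron, had 300.4, 330.0, 264 and 308 CPM at 60 min and 346, 335, 520.2 and 505 CPM at 90 min in DMSO (log2 change 0.50 ± 0.20 SE, adjusted p = 0.0752), so its change did not pass the threshold although the groups did not overlap. Of 17 genes of cohesin and its regulators 1 fell, SMC3, at 241, 274, 226 and 235 CPM at 60 min and 225, 154, 152 and 159 CPM at 90 min (log2 change -0.50 ± 0.16 SE, adjusted p = 0.0272). That call was lost without replicates 2 or 4 at 60 min or 2, 3 or 4 at 90 min (adjusted p just over 0.05 and up to 0.0960). RAD21 (-0.25), STAG2 (0.35), WAPL (0.38) and HDAC8 (0.55) were not called. Among all tested genes 12.6% fell and 6.78% rose, and whether the cohesin list differs from that was not tested.

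The changes followed gene length. Genes of 10 to 30 kb had a median log2 change of -0.31, with 736 of 3306 lower and 86 higher. Genes of 30 to 100 kb had a median of -0.12, with 682 of 4352 lower and 231 higher. The sign turned above that: genes of 100 to 300 kb had a median of 0.27, with 86 of 2648 lower and 476 higher, and genes over 300 kb a median of 0.30, with 8 of 938 lower and 68 higher. Under 10 kb the median was 0.01, with 275 of 2953 lower and 102 higher. In finer classes, chosen after the data were seen, the median crossed 0 between 60 to 80 kb (-0.05) and 80 to 100 kb (0.06) and was highest at 150 to 200 kb (0.33). At the short end genes under 2 kb stood apart with a median of 0.32, while those of 5 to 10 kb were at -0.27. Among protein-coding genes alone the medians of the 5 classes, from short to long, were -0.19, -0.30, -0.12, 0.28 and 0.32.

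**Figure D3:**
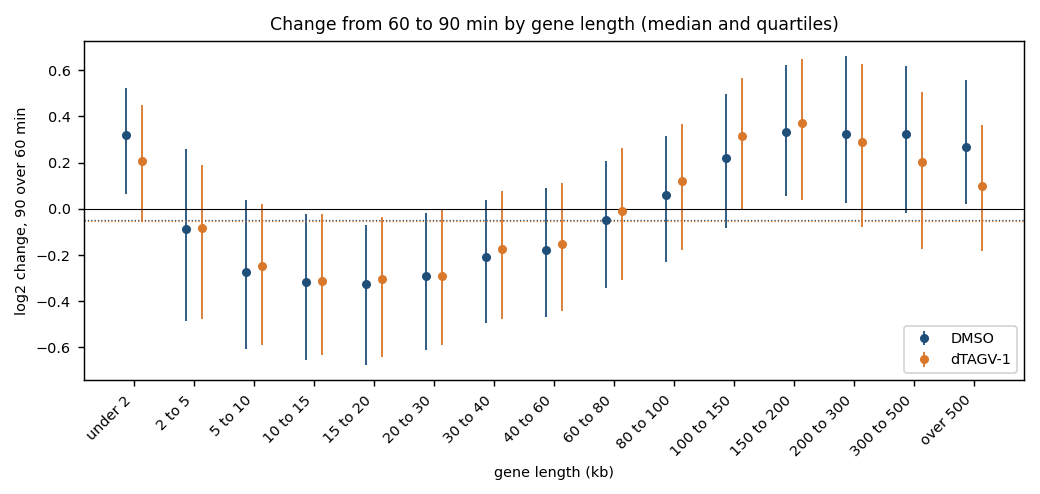
Median log2 change from 60 to 90 min (points) with quartiles (bars) by gene length in kb, for DMSO in blue and dTAGV-1 in orange, with dotted lines at the median of all genes. Both arms are below 0 from 2 to 60 kb and above 0 from 80 kb on.

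In all reads the medians were different. Over the 14195 of these genes that could also be tested on all reads, the all-read medians of the 5 classes, from short to long, were 0.02, -0.14, -0.14, -0.07 and 0.28, against -0.09 for those genes together, a set of genes chosen after the data were seen. The class of 100 to 300 kb was thus below 0 in all reads and above 0 in converted reads, whereas the class over 300 kb was above 0 in both. More falls than rises were called in each class in all reads, over 300 kb 45 against 2 of 938. Over all 27243 genes that pass the filter on all reads the medians were 0.06, 0.09, 0.03, 0.06 and 0.29. Relative to all reads of the same gene, converted reads gave medians of -0.08, -0.23, -0.04, 0.26 and -0.06. By that measure 74 of 2648 genes of 100 to 300 kb were called lower and 1055 higher, and 9 of 938 genes over 300 kb lower and 242 higher, so that in the longest class the median lay below 0 while most calls were rises. In each of the 5 classes the difference in the share of converted reads had the same sign as the median change of converted reads. Under 10 kb that median was only 0.01. Nuclear genes of 10 to 30 kb took 18.7% ± 0.4 of converted reads at 60 min and 15.5% ± 0.7 at 90 min, and genes of 30 to 100 kb took 37.5% ± 0.5 and 33.9% ± 0.8. Genes of 100 to 300 kb took 25.1% ± 0.5 and 30.2% ± 1.5, and genes over 300 kb 5.79% ± 0.17 and 6.93% ± 0.70 (SD, n = 4 each). In each of these 4 classes the libraries of the 2 times did not overlap (two-sided exact permutation test, p = 0.0286, adjusted p = 0.0476 over 10 classes). Without replicate 1, 2, 3 or 4 at 60 min the adjusted p was 0.0571 to 0.0952 and did not pass. The same held for the histone and 10-gene shares. In these fits the unadjusted p of the same exact test was still 0.0286 for 10 to 30, 30 to 100 and 100 to 300 kb. It was 0.0571 for over 300 kb. The difference for 100 to 300 kb was then 4.99 to 5.39 percentage points. Without a library at 90 min it was 4.53 to 5.73 points, and these 4 classes and the histone and 10-gene shares passed in all 4 such fits (adjusted p = 0.0476). Genes under 10 kb took 12.4% ± 0.8 and 12.9% ± 0.8, which did not pass the same exact test (p = 0.429). Ribosomal protein genes (adjusted p = 0.393) and the mitochondrial chromosome (adjusted p = 0.429) did not pass either.

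**Figure D4:**
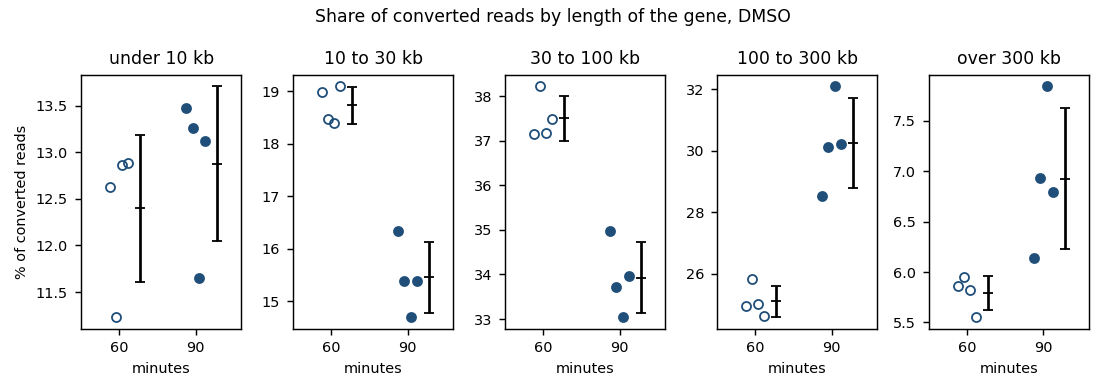
Share of converted reads (%, axes not starting at 0) in nuclear genes of 5 length classes, with 1 point per DMSO library at 60 min (open) and 90 min (filled) and mean ± SD beside them. The 4 libraries at 90 min lie below all at 60 min for 10 to 30 kb and 30 to 100 kb, and above all for 100 to 300 kb and over 300 kb.

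The neighbouring intervals share libraries with this one and are given side by side only. From 30 to 60 min, which shares the 60 min libraries, 1180 genes fell and 2821 rose, and the length medians ran 0.02, 0.36, 0.06, -0.30 and -0.56. From 90 to 120 min, which shares the 90 min libraries, 387 genes fell and 108 rose. DMSO replicate 3 at 120 min held 0.644 M converted reads, the fewest in the fit. Its 10 most abundant genes took 13.5% of them, the highest share in the fit. The effect of that library on the 120 min values was not tested. BAG1 changed by 2.14, -1.85 and 0.00 over the 3 intervals, NDUFV2-AS1 by 4.44, -2.11 and -1.48, and CDK1 by -1.40, -2.26 and -0.82. AKAP12 changed by -0.09, 1.93 and 0.21, DDIT4 by 2.29, 1.95 and 1.64, and ITGA2 by -0.41, 1.35 and 0.50.

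The dTAGV-1 arm shares no library with DMSO, although both arms were in the same fit and shared its estimate of spread. There 1922 of 14197 genes fell and 1334 rose (13.5% and 9.4%). Of the 1787 genes that fell in DMSO 1322 fell with dTAGV-1, which is 74.0% of the DMSO falls and 68.8% of the dTAGV-1 falls. Of the 963 that rose 759 rose with dTAGV-1, 78.8% of the DMSO rises and 56.9% of the dTAGV-1 rises. In each direction 1 gene was called the opposite way. Across all tested genes the 2 steps correlated at r = 0.766, given as a description since genes are not independent. With dTAGV-1 the log2 change was, for BAG1, -1.80, for MPC2 -1.79, for NDUFV2-AS1 -2.35, for CDK1 -2.18 and for MIR100HG 2.02, beside -1.85, -1.82, -2.11, -2.26 and 2 in DMSO. Length medians with dTAGV-1 were -0.03, -0.30, -0.09, 0.32 and 0.15.

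A difference between the steps of the 2 arms was found in 3 genes (0.0211% of those tested), by the interaction in the same edgeR fit, and 2 of them are described. AKAP12 had 159 ± 20.8 CPM at 60 min and 217 ± 22.8 CPM at 90 min with dTAGV-1 (SD, n = 4 each), a log2 change of 0.44. Its step was larger in DMSO by 1.49 ± 0.250 SE on the log2 scale (adjusted p = 0.00922). VEGFA had 65.8 ± 16.9 and 63.8 ± 12.1 CPM with dTAGV-1 and a difference of 1.69 ± 0.321 SE (adjusted p = 0.0334), which was lost in 11 of 16 fits that left out 1 library (adjusted p up to 0.157). The AKAP12 call was kept in all 16 such fits (adjusted p up to 0.0456). In all reads the differences were 0.50 for AKAP12 and 0.97 for VEGFA, and neither passed. Library sizes from all reads left no gene called, with differences of 1.5 for AKAP12 and 1.63 for VEGFA (adjusted p = 0.212 and 1.00). SNAI2 (2.31 ± 0.65 SE), GATA6 (1.18 ± 0.35), INSIG1 (1.20 ± 0.38), HIF1A (1.08 ± 0.25), MYC (0.84 ± 0.37) and DUSP4 (0.83 ± 0.22) had differences in the same direction that did not pass, with adjusted p = 0.285 for HIF1A and 1.00 for the others. The SNAI2 level with dTAGV-1 was 2.57 ± 1.71 and 2.92 ± 1.16 CPM, against 4.51 ± 1.85 and 25.1 ± 9.17 CPM in DMSO.

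**Figure D5:**
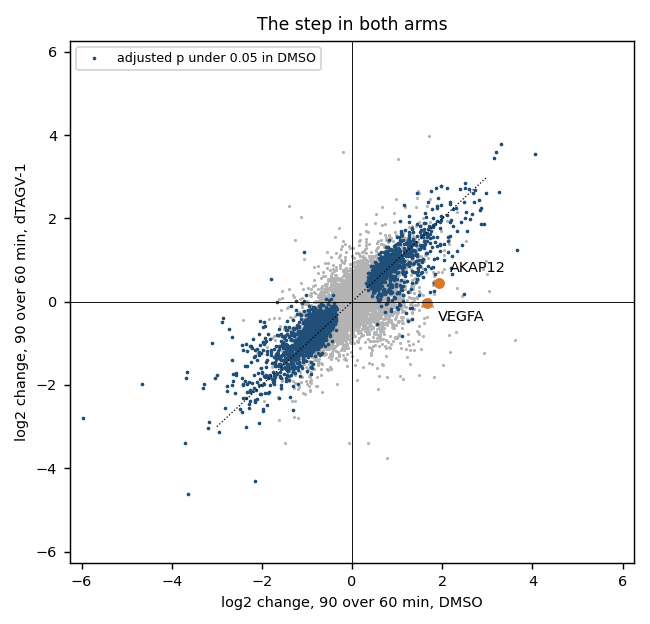
Log2 change from 60 to 90 min in DMSO (x axis) against that with dTAGV-1 (y axis), 1 point per tested gene, blue where the adjusted p in DMSO is under 0.05, with the line of equal change dotted. Most blue points lie near that line, while AKAP12 and VEGFA (orange) rise in DMSO with changes of 0.44 and -0.03 with dTAGV-1.

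In the DMSO samples titled release none of 13917 genes tested was called between 60 and 90 min (3 libraries each; edgeR, 491 at an unadjusted p under 0.05), and the steps of both series differed for 330 of 15126 genes (2.18%) in a fit over both, added after the data were seen. Scaled together with the mitosis series, BAG1 stood at 22.3 and 26.8 CPM there, beside 94.0 and 28.6 in the libraries described here, and its difference of -2 passed (adjusted p = 3.25e-06). CDK1 was at 5.90 CPM already at 30 min and at 6.76 and 8.14 CPM at 60 and 90 min, beside 93.9 and 21.9. AKAP12 was at 1112 and 1058 CPM, near its 90 min level of 897. The labels do not settle from when the time of those samples counts.

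A gene on the opposite strand started within 1 kb of 818 of the 1787 genes that fell (45.8%) and of 190 of the 963 that rose (19.7%), against 29.0% of all tested genes. Promoters matched by symbol for 1305 of the falling, 687 of the rising and 9790 of all tested genes. A CCAAT box was found in 45.2% of falling, 31.3% of rising and 37.5% of tested promoters, and in 35.7% of all 27305 promoters of the same length in the table. The GC box was in 77.0%, 66.2%, 69.1% and 44.6%, the TATA letters in 4.2%, 8.0%, 5.9% and 12%, and the AP-1 letters in 3.5%, 6.4%, 4.5% and 7.8%, in the same order. The CHR letters were in 11%, 9.2%, 10.4% and 15.4%, but in 20 of the 29 mitotic promoters matched (69.0%), of which 23 held a CCAAT box. MYC's E-box CACGTG was in 12.8%, 10.0%, 9.9% and 7.4%. All motifs were searched on both strands, with N as any base. A match is only a run of letters in this window, and promoters of genes that face each other overlap and so share it.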

How the data were processed

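SLAM-seq libraries of total RNA were analysed from per-gene tables. Per the submitters' processing notes HISAT, Picard and HTSeq were used on hg38, with roles, options and strand use not given in the sources used here. Per the file headers, the authors deposited for each gene the count of reads with a T-to-C conversion, the count of all reads, and a conversion rate as a fraction of T positions. None was normalised. Each file lists genes with at least 1 read, so an unlisted gene counts as 0. Of 48762 genes in the 60 libraries read, 226 genes on the Y chromosome and around the X inactivation centre were not analysed here, and starts were raised by 1, since 9580 lay 1 below the RefSeq start.

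Converted reads were fitted with edgeR 4.0.16 (quasi-likelihood, robust, TMM, filterByExpr at 10 and 15 counts, two-sided, Benjamini-Hochberg, R 4.3.3) over the 36 libraries at 0 to 120 min, with 1 coefficient per group. These held 0.644 to 3.69 M converted reads (M for mega). Intervals are standard errors of that fit. Shares of reads were compared by exact permutation tests, and scripts were tested on simulated data. Gene symbols are those of the files, 30307 of which matched RefSeq by symbol and chromosome, and promoters are RefSeq's (GRCh38.p14). DESeq2 1.42.0 served for alternatives, and tables and plots were made in Python 3.11.15.

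Genes named were the 12 largest rises and 12 largest falls with adjusted p under 0.05, mean log2 CPM of at least 3 and libraries at 60 and 90 min that did not overlap, with clone names, small RNAs and pseudogenes passed over, up to 3 called members per list for 27 lists, NIPBL, and up to 8 genes called between arms. Other list members are given beside them, and a few genes that these rules name are not reported here. The comparison, members and lists were chosen with earlier results of these data known. Same-numbered dTAGV-1 replicates deviated together (correlations of 0.14 to 0.26), a pairing read from the data and not stated in the labels. Replicates differed beyond sampling noise. Alternatives were other normalisations, tests, filters, library subsets, all reads, a replicate block and leaving out each library.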

Additional observations from a re-analysis of the deposited data

Results flagged for a closer look

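In a group of 4 the highest or lowest library was marked where its gap to the nearest other exceeded Dixon's 95% critical share of the group's range, which chance does for about 1 in 20 groups, or 9.0 of the 180 groups examined; 12 were marked, of which 11 are given. Replicate 1 was the library in 7 of them. At 60 min GPR75-ASB3 read 2.57 CPM in replicate 1 against 5.07 to 5.12 in the others, AURKB 58.7 against 31.4 to 34.3, and SUN1 202 against 180.0 to 182. At 90 min replicate 1 read 8.90 CPM for AZIN1-AS1 against 4.49 to 5.13, 4.04 for CHAC1 against 17.9 to 18.3, 115 for NOP2 against 72.6 to 78.2, and 225 for SMC3 against 152 to 159. At 60 min CETN3 read 9.73 CPM in replicate 3 against 22.4 to 24.4, and SLC7A11 192 in replicate 3 against 149.9 to 154. Nuclear genes under 10 kb took 11.2% of converted reads in replicate 2 at 60 min against 12.6% to 12.9%. LIF read 332 CPM in replicate 3 at 90 min against 197 to 207.

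The step differed between arms for VEGFA by 1.69 and AKAP12 by 1.49 on the log2 scale, DMSO minus dTAGV-1 (edgeR interaction, adjusted p = 0.0334 and 0.00922). The steps of the DMSO libraries of the mitosis and release series differed for 330 genes (2.18% of those tested), 35 of the 79 named here among them. Most named genes were picked for their step in these same mitosis-series libraries, so that count is no separate result.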

How the results depend on the processing

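The step in DMSO gave 1257 to 1760 falls and 626 to 1009 rises when 1 library was left out, and that with dTAGV-1 gave 1455 to 1936 and 853 to 1486 (853 without dTAGV-1 replicate 3 at 90 min); the difference between arms gave 2 to 3 genes and the release series 0 and 0. DESeq2 size factors gave 1556 falls and 1143 rises, DESeq2's own test 1616 and 1251, and the DMSO libraries alone 1577 and 887. Library sizes from all reads gave 2021 and 433 in DMSO and 732 rises with dTAGV-1; the 8 libraries alone gave 1745 and 1648; converted reads relative to all reads of the gene, added after the data were seen, gave 2054 and 1846, and 2143 rises with dTAGV-1. A change of at least 1 on the log2 scale was called for 574 falls and 311 rises. All reads gave 747 and 250 in DMSO and 527 and 308 with dTAGV-1. The difference between arms was called for 20 genes with no filter on low counts, for 1 gene relative to all reads and for 0 with all reads or with library sizes from all reads, and the release series gave 6 falls and 1 rise with no filter. The cause of these differences was not tested.

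With the replicate number as a block 2203 genes fell and 1256 rose, and all 1787 and 963 of the main calls were kept, as were those of all named genes; same-numbered DMSO libraries deviated together at correlations of 0.182, 0.0215, 0.271 and 0.107, and replicate 2 at 60 min correlated best with replicate 4, so the labels' numbers were not taken as pairs.

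Relative to all reads of the gene the log2 change turned for IL1A (-0.043), IER3 (-0.20), EGR3 (-0.62), MYC (-0.30), TOP2A (0.10), CHAC1 (-0.45), ADM (-0.18) and INSIG1 (-0.038), and with all reads for TNFAIP3 (0.032), ID2 (0.11), MICAL2 (-0.0055), FHL2 (-0.24), VCL (-0.034), HIF1A (-0.028) and NIPBL (-0.15). Of 79 named genes 71 kept direction and side of the threshold with library sizes from all reads, 75 with no filter and 37 with all reads.

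Differences in share, 90 minus 60 min, were 0.42, -0.26, -0.67 and -0.81 percentage points in all reads for 10 to 30, 30 to 100, 100 to 300 and over 300 kb, 0.12 for ribosomal protein genes, 0.0225 for histone genes and 0.0538 for the 10 most abundant genes. Length medians were -0.086, -0.41, -0.22 and 0.18 for under 10, 10 to 30, 30 to 100 and 100 to 300 kb with library sizes from all reads, -0.12 and -0.062 for 10 to 30 and 30 to 100 kb with no filter, 0.092, 0.035 and 0.059 for 10 to 30, 30 to 100 and 100 to 300 kb in all reads, -0.14 and -0.066 for 10 to 30 and 100 to 300 kb in all reads of the genes tested on converted reads, and -0.081, -0.23 and -0.039 for the 3 shortest classes and -0.055 for the longest relative to all reads. With library sizes from all reads list medians were 0.29 for matrix, 0.19 for actin, -0.23 for heat shock, -0.037 for hypoxia, -0.61 for cholesterol, -0.049 for ribosomal protein, -0.32 for nucleolar and -0.19 for polymerase genes and 0.052 for pigment epithelium markers. Genes with few converted reads, such as THAP9, are limited by depth.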
